A study of Mus musculus with 19 samples.

Results

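The SR proteins are a family of RNA-binding splicing factors, and the transcripts of 10 of their genes, Srsf1, Srsf2, Srsf3, Srsf4, Srsf5, Srsf6, Srsf7, Srsf9, Srsf10 and Srsf11, were followed in the striatum of Huntington's disease knock-in (KI) mice. The members were taken by symbol from a table of 54232 genes. All 10 were found, and all 10 were among the 18521 genes with enough reads to be tested. Striatal RNA of 19 mice at 6 months of age was sequenced, from 7 wild-type (WT) mice and from 4 mice each of the KI-96, the KI-571 and the KI-FL genotype, labelled with the strain background C57/BL/6. Per the study's methods, the KI mice derive from HD140Q KI mice, in which Htt carries an expanded CAG repeat and is driven by the endogenous promoter. KI-FL mice make full-length mutant huntingtin (HTT) from the knock-in allele. In KI-571 and KI-96 mice the same allele was disrupted by CRISPR-Cas9 so that an N-terminal fragment is made, which is shorter in KI-96 mice. The truncated lines descend from founders edited as zygotes and were bred as heterozygotes, so that they keep a normal Htt allele. The zygosity of the sequenced KI-FL mice is not given in the sources used here. The sex of the mice and the batch that the study's methods mention are not in the labels used here.

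SR proteins carry RNA recognition domains and a tail rich in arginine and serine. They bind enhancer sequences in exons and help the spliceosome to choose the exons that are kept. Their tails are phosphorylated by the SRPK kinases in the cytoplasm, which promotes import into the nucleus, and by the CLK kinases in the nucleus, which releases them from nuclear speckles. Most SR genes also limit their own level, because the protein favours a splice form that holds an early stop codon and is degraded by nonsense-mediated decay. SRSF6 is of interest in Huntington's disease because it has been linked to incomplete splicing of mutant Htt, in which the transcript ends soon after exon 1 and a short, toxic exon 1 protein is made. The counts used here are sums over whole genes, so that neither the splice forms of the SR genes nor the incompletely spliced Htt transcript was measured.

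The sequences on which this biology rests are given first, from the mouse genome build GRCm38. In the start of the coding sequence of Htt exon 1 (chr5:34761907-34761993, plus strand), the 7 glutamine codons of the normal mouse repeat are in capitals. The expanded repeat of the KI allele is not in the reference.
Htt exon 1: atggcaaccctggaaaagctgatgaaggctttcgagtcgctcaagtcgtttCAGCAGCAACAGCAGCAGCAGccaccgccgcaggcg
Srsf6 has 4 annotated transcripts in GENCODE release M21, of which 1 is annotated for nonsense-mediated decay. That transcript includes an exon of 268 bases, and its reading frame ends inside it. The last bases of this frame (chr2:162932907-162932966, plus strand) are shown with the stop codon in capitals, which lies outside the exons of the principal coding transcript.
Srsf6 decay exon: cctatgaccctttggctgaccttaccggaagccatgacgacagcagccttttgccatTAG

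The promoters of Srsf6, Srsf1, Srsf5 and Srsf11 are printed because these 4 genes had their lowest levels in largely the same KI mice, as described further on. They are bases before the RefSeq start site in GRCm38, on chr2:162931258-162931507 (plus strand), chr11:88047123-88047372 (plus strand), chr12:80945249-80945498 (plus strand) and chr3:158036640-158036856 (minus strand). Capitals mark TGACG, or CGTCA on the other strand, the half-site that CREB-type factors bind.
Srsf6 promoter: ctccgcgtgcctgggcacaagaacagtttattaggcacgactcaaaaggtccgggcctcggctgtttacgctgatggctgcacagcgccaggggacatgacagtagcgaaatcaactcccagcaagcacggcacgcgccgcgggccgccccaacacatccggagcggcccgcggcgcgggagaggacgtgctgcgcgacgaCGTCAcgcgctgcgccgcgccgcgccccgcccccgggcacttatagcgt
Srsf1 promoter: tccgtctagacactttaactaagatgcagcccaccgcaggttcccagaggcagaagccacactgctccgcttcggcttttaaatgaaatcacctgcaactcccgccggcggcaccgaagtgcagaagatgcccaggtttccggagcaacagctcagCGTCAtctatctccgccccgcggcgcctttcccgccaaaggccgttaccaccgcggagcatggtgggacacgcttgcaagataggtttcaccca
Srsf5 promoter: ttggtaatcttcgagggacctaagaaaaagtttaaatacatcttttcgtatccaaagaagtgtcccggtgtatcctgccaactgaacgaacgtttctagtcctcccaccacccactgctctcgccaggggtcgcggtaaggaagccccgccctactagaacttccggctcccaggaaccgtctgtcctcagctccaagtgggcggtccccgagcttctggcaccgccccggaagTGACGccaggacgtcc
Srsf11 promoter: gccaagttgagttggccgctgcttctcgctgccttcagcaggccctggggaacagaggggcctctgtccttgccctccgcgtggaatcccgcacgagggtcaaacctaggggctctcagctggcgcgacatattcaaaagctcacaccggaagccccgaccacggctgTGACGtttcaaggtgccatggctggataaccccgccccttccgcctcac
In the 250 bases before the start site, TGACG was found on either strand for 6 of the 10 members (Srsf1, Srsf3, Srsf5, Srsf6, Srsf10 and Srsf11) and in 17.8% of 32851 mouse promoters. TATAA was found for 4 of the 10 members and in 22.8% of promoters. CCAAT was found for 3 of the 10 members and in 33.9% of promoters. Members were counted by their first listed promoter (Srsf4 has 3 and Srsf11 has 2, of which 1 holds TGACG), whereas the share of all promoters counts every listed promoter. The promoters of the members were richer in GC, at 56.8% to 78.0%, than the median of all promoters, 52.4%, and the part of GC content in these shares was not tested. None of the 3 motifs contains another, both strands were searched, and the motifs were chosen with the levels known. Srsf3 and Srsf10 hold TGACG and did not share the low values of the printed genes. Srsf2, Srsf7 and Srsf9 hold no TGACG in the bases searched, and were also lowest in largely the same KI mice.

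Reads counted on genes numbered between 12669809 and 26388542 per mouse (median 18202412), and each member had between 249 and 9629 reads in a mouse. Levels are given as CPM, read counts scaled to the library total after TMM normalization. Summed CPM of the 10 markers of striatal projection neurons lay between 5373 and 9134, with no marker at 0 in any mouse. Markers of neighbouring tissue varied. Cortical neuron markers summed to 1048 CPM in WT replicate 3 and 449 in KI-571 replicate 2 against at most 164 elsewhere, and choroid plexus markers ranged from 35.6 to 5302 CPM. A pair of libraries stood apart. In KI-FL replicate 4, 3186 of the tested genes had no read, against at most 222 in the other mice, and in KI-96 replicate 3 a share of 24.2% of reads fell on no gene, against at most 16.0% elsewhere. Values without these libraries are given beside several of the results.

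To compare the members with one another, CPM was divided by exon length and given as RPKM. In WT mice Srsf5 was the most abundant, at 89.1 ± 6.55 RPKM (SD, n = 7), and it exceeded the next member in 7 of 7 WT mice. The following group was close together: Srsf9 had 32.5 ± 1.99, Srsf7 30.9 ± 3.49, Srsf1 30.5 ± 2.70 and Srsf6 27.8 ± 3.15 RPKM. Srsf9, Srsf7 and Srsf1 did not differ beyond their spread, while Srsf1 lay above Srsf6 in 7 of 7 WT mice. Srsf2 (24.6 ± 2.14 RPKM) and Srsf11 (22.9 ± 1.66 RPKM) were next, and Srsf2 lay above Srsf11 in 7 of 7 WT mice although their ranges overlapped. The lowest levels on this scale were those of Srsf3 (16.4 ± 0.939), Srsf10 (11.03 ± 1.84) and Srsf4 (5.61 ± 0.380 RPKM), in this order in all 7 WT mice. The exon length sums every annotated exon, so that genes with many retained introns in the annotation, such as Srsf11 with 11 of 19 transcripts of that kind, come out lower on this scale. Exon bases outside coding transcripts made up 66.9% of the length for Srsf3, 60.6% for Srsf11 and 58.5% for Srsf5. They made up 23.2% for Srsf6 and 2.66% for Srsf1. The order of the members, with the low place of Srsf3 and that of Srsf1 above Srsf6, thus depends on the length used. Another length was not tested. Exons of Srsf2 and Srsf4 share 25.3% and 43.0% of their bases with genes on the opposite strand (Mettl23 and Mfsd11, and Gm12992), and the strand setting of the counting is not given in the sources used here, so that their levels are less certain.

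No SR gene passed the test of any genotype against WT. In the quasi-likelihood test of edgeR, adjusted by Benjamini-Hochberg over all 18521 genes, 0 of the 10 members had an adjusted p under 0.05 in KI-96, KI-571 or KI-FL mice, where 0.027%, 0.0324% and 0.194% of all tested genes did. At an unadjusted p under 0.05 in the lower direction there were 0 members in KI-96 (background 3.09%), 0 in KI-571 (background 3.83%) and 2 in KI-FL mice, Srsf5 and Srsf11 (background 8.84%). DESeq2 on the same counts called 0 of 10 members at an adjusted p under 0.05 in each of the 3 comparisons, and gave 4 members an unadjusted p under 0.05 in KI-FL mice (Srsf1, Srsf5, Srsf6 and Srsf11), where 18.6% of the genes tested by DESeq2 did. The fitted fold change lay below 0 for 7 members in KI-96, 6 in KI-571 and 7 in KI-FL mice, against 52.8%, 51.7% and 53.9% of all tested genes. The median log2 fold change of the members was -0.25 in KI-96, -0.046 in KI-571 and -0.10 in KI-FL mice, and that of all tested genes -0.015, -0.0089 and -0.028. Without KI-96 replicate 3 the median of the members in KI-96 mice was -0.13.

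**Figure D1:**
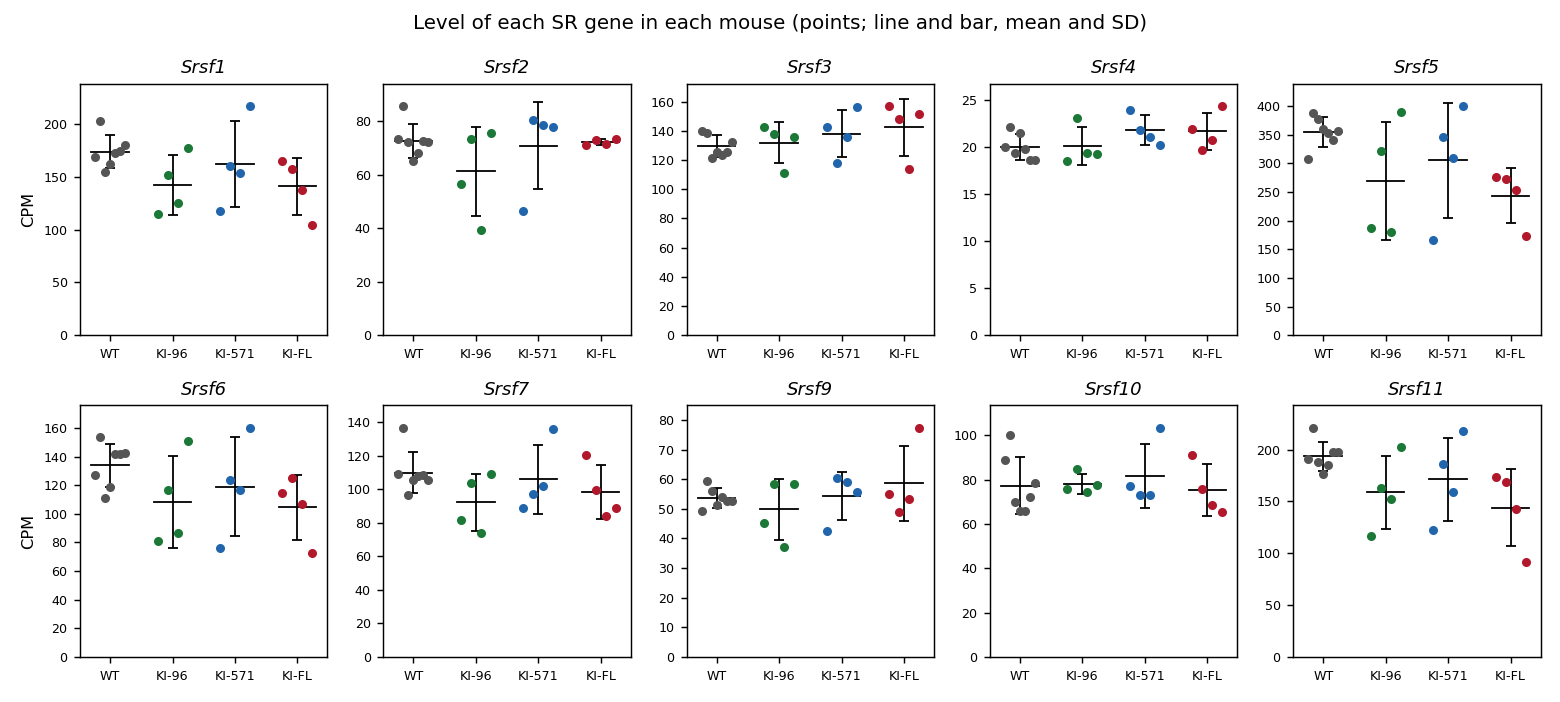
CPM (y axis, from 0) of each SR gene in each mouse, by genotype (x axis, with replicates in order from left to right), with the mean (line) and SD (bar) of each genotype. Srsf1, Srsf5, Srsf6 and Srsf11 were tight in WT mice and widely scattered in each KI genotype, while Srsf3, Srsf4 and Srsf10 had like levels in the 4 genotypes.

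SRSF6 was examined first, because of its link to Htt exon 1. In WT mice Srsf6 ranged from 111 to 153 CPM (median 142). In replicates 1 to 4 it was 80.8, 116, 86.3 and 151 CPM in KI-96, 75.8, 124, 116 and 159.8 in KI-571 and 114, 125, 107 and 72.3 in KI-FL mice. The mouse with the lowest value of each KI genotype lay well below every WT mouse, the highest KI-96 mouse lay within the WT range, the highest KI-571 mouse lay above it, and each genotype overlapped WT. The means were 134 ± 15.2 CPM (SD, n = 7) in WT, 109 ± 32.2 CPM (SD, n = 4) in KI-96, 119 ± 34.4 CPM (SD, n = 4) in KI-571 and 105 ± 22.7 CPM (SD, n = 4) in KI-FL animals. Its log2 fold change against WT was -0.30 (SE 0.18, edgeR adjusted p = 0.738) in KI-96, -0.17 (SE 0.18, adjusted p = 0.939) in KI-571 and -0.36 (SE 0.18, adjusted p = 0.328) in KI-FL mice. The 95% interval in KI-FL mice, -0.74 to 0.022, included no change.
In an exact permutation test of Srsf6 (two-sided, on log2 CPM) over the 330 splits of 4 mice against 7, in which the smallest p is 0.00303, the p was 0.0788 for KI-96, 0.300 for KI-571 and 0.0242 for KI-FL mice. Adjusted over these 3 tests the exact p became 0.118, 0.300 and 0.0727, so that none passed 0.05. Without KI-FL replicate 4 the difference of KI-FL from WT mice shrank from -0.38 to -0.21 in log2 CPM and the exact p rose to 0.0917, and without KI-FL replicate 3 it was -0.40 with an exact p of 0.05. Without KI-96 replicate 4 the difference of KI-96 from WT mice was -0.51 with an exact p of 0.0167. Each of these 2 genotypes thus passed or missed an unadjusted 0.05 depending on 1 mouse. With 1 surrogate variable in edgeR's fit the log2 fold change of KI-FL against WT was -0.027 for Srsf6, -0.062 for Srsf1, -0.095 for Srsf11 and -0.27 for Srsf5, all nearer to 0 than without it. Whole-tissue RNA cannot tell fewer cells of a type from less RNA per cell.

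Srsf5 encodes a small SR protein and had the largest fold change of the members in each comparison with WT. Its level in WT mice was 309 to 389 CPM (median 357). The KI values by replicate were 188, 321, 179 and 390.5 CPM in KI-96, 166, 346, 309.6 and 399.5 in KI-571 and 276, 272, 254 and 173 in KI-FL mice. All 4 KI-FL mice lay below every WT mouse, whereas in KI-96 and KI-571 mice low and WT-like values stood side by side. Groups that do not overlap in the lower direction were seen for 2.38% of all tested genes in KI-FL, 0.643% in KI-96 and 0.67% in KI-571 mice, and among the members for Srsf5 and Srsf11 in KI-FL mice and for 0 members in the other KI genotypes. The log2 fold change of Srsf5 in KI-FL mice was -0.54 (SE 0.21, edgeR adjusted p = 0.204). With WT and KI-FL mice alone in the fit, the adjusted p of Srsf5 fell to 0.0327 and it was the 1 member to pass. In that fit 336 of 17757 tested genes passed, against 36 of 18521 in the main fit. Without KI-FL replicate 4 the fold change of Srsf5 was -0.41 (adjusted p = 0.435 in edgeR), and the 3 other KI-FL mice were still below every WT mouse. For KI-96 mice it was -0.40 (SE 0.21, edgeR adjusted p = 0.697) and for KI-571 mice -0.22 (SE 0.21, adjusted p = 0.926).

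Srsf11, a larger protein with an SR-rich tail that acts in exon choice, followed the same course. WT mice had 176 to 221 CPM (median 191). By replicate, the level was 117, 163, 153 and 203 CPM in KI-96, 123, 186, 159 and 218 in KI-571 and 174, 168, 142 and 91.8 in KI-FL mice. The 4 KI-FL mice were again all below the WT range, by little in the first mouse and by far in the fourth. The log2 fold change in KI-FL mice was -0.43 (SE 0.16, edgeR adjusted p = 0.199), and it was -0.26 (adjusted p = 0.463) without KI-FL replicate 4. For KI-96 and KI-571 mice it was -0.29 and -0.18 (edgeR adjusted p = 0.718 and 0.917).

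Srsf1 encodes the founding SR protein, an activator of exon inclusion that is needed in most cells. Its WT range was 155 to 204 CPM (median 173). Replicates 1 to 4 stood at 115, 152, 125 and 177 CPM in KI-96, 118, 161, 154 and 217 in KI-571 and 166, 157, 138 and 105 in KI-FL mice. Values from well below the WT range to within or above it occurred in KI-96 and KI-571 mice, and the KI-FL mice spread from below the range to its lower part. Srsf1 had log2 fold changes of -0.29 (SE 0.15) in KI-96, -0.10 (SE 0.15) in KI-571 and -0.30 (SE 0.15) in KI-FL mice, with edgeR adjusted p of 0.688, 0.962 and 0.308. Without KI-FL replicate 4 the value for KI-FL mice was -0.18.

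Srsf7, which carries a zinc knuckle and also takes part in RNA export, moved less. It ranged from 96.6 to 136 CPM (median 108) in WT mice. KI mice had, by replicate, 81.5, 104, 73.9 and 109 CPM in KI-96, 88.7, 96.9, 102 and 136 in KI-571 and 121, 99.3, 84.0 and 88.8 in KI-FL mice. The KI-96 values were within or below the lower WT range, and KI-571 and KI-FL mice had values below and within it. The log2 fold changes were -0.25, -0.053 and -0.16 in the same order (edgeR adjusted p = 0.694, 0.984 and 0.541). For KI-96 mice it was -0.16 without KI-96 replicate 3.

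**Figure D2:**
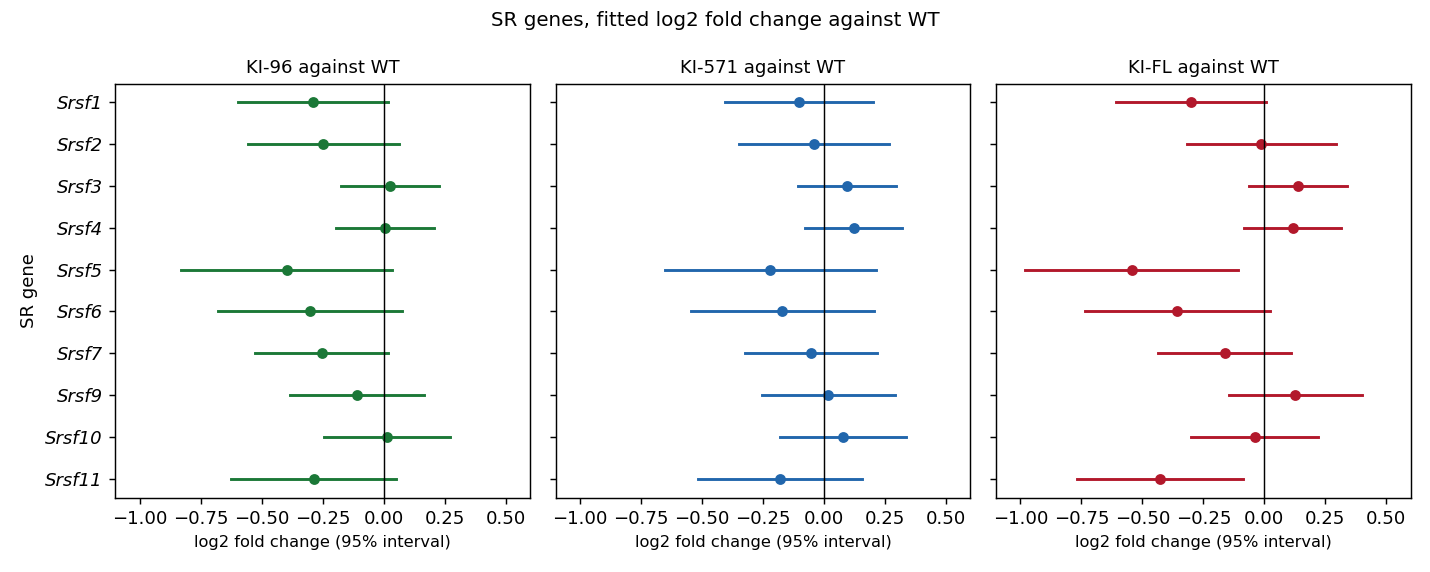
Fitted log2 fold change of each SR gene (points, x axis) with its 95% interval (lines) for the comparisons of KI-96, of KI-571 and of KI-FL with WT mice. In KI-FL mice the intervals of Srsf5 (-0.98 to -0.11) and Srsf11 (-0.77 to -0.088) lay below 0 before adjustment, and every other interval in the 3 panels included 0.

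Srsf2 and Srsf9 were low in KI-96 replicates 1 and 3 and in KI-571 replicate 1, and stayed near or within the WT range in most other KI mice. Srsf2, also known as SC35 and a component of nuclear speckles, had 65.2 to 85.5 CPM (median 72.2) in WT mice. In replicates 1 to 4 it was 56.6, 73.2, 39.5 and 75.5 CPM in KI-96, 46.5, 80.3, 78.7 and 77.8 in KI-571 and 71.2, 73.0, 71.3 and 73.2 in KI-FL mice. The KI-FL mice were nearly equal, with an SD of 1.09 CPM, and 3 mice of the other genotypes lay below every WT mouse. Its log2 fold changes were -0.25 (SE 0.15), -0.039 (SE 0.15) and -0.011 (SE 0.15) in the 3 KI genotypes (in the same order), with edgeR adjusted p of at least 0.736. Without KI-96 replicate 3 the log2 fold change of Srsf2 in KI-96 mice was -0.089. Srsf9, a small SR protein of which less is known, had 49.4 to 59.4 CPM (median 52.7) in WT mice. In replicates 1 to 4 it was 45.3, 58.4, 37.1 and 58.2 CPM in KI-96, 42.6, 60.3, 59.1 and 55.6 in KI-571 and 54.9, 48.9, 53.5 and 77.2 in KI-FL mice. Srsf9, like Srsf4, was highest of all mice in KI-FL replicate 4, the library with the most genes at 0, and its log2 fold change in KI-FL mice changed from 0.13 to -0.034 without that library. In KI-96 and KI-571 mice it was -0.11 and 0.019 (edgeR adjusted p = 0.887 and 0.998).

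Srsf3, Srsf4 and Srsf10 differed little between genotypes. Srsf3, the smallest SR protein, had 121 to 139.6 CPM (median 126) in WT mice. Replicates 1 to 4 had 143, 138, 111 and 136 CPM in KI-96, 142, 118, 136 and 156 in KI-571 and 157, 148, 114 and 151 in KI-FL mice. Most KI values were within or above the WT range, and KI-96 replicate 3, KI-571 replicate 2 and KI-FL replicate 3 were below it. Srsf4 had 18.6 to 22.1 CPM (median 19.8) in WT mice and between 18.5 and 24.3 CPM in KI mice. Srsf10, which represses splicing when it is dephosphorylated in mitosis or after heat shock, had 65.6 to 100.1 CPM (median 72.1) in WT mice and between 65.2 and 103 CPM in KI mice. The log2 fold changes of these 3 genes lay between -0.039 (Srsf10 in KI-FL mice) and 0.14 (Srsf3 in KI-FL mice), and the widest of their 95% intervals was -0.30 to 0.22, for Srsf10 in KI-FL mice.

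The KI mice with low values were largely the same for several members. The 4 lowest of all 19 mice were KI-96 replicates 1 and 3, KI-571 replicate 1 and KI-FL replicate 4 for each of Srsf1, Srsf5 and Srsf6. For each of Srsf11, Srsf7, Srsf2 and Srsf9, 3 of these 4 were among the 4 lowest. As a percentage of the WT median, Srsf5 was 52.5 and 50.2 in the KI-96 mice, 46.5 in the KI-571 mouse and 48.6 in the KI-FL mouse. For Srsf6 the same percentages were 57.0, 60.9, 53.5 and 51.0. The other KI-FL mice had 77.4, 76.2 and 71.0% of the WT median for Srsf5, and the other KI-571 mice 96.9, 86.7 and 112%.
Counted over members, 8 of 10 lay below every WT mouse in KI-96 replicate 1, 8 in KI-96 replicate 3, 7 in KI-571 replicate 1 and 6 in KI-FL replicate 4. Of all tested genes, 20.7%, 29.7%, 22.9% and 40.9% did so in these mice. In KI-FL replicate 3 the count was also 6 (background 19.2%), and in KI-96 replicate 4 and KI-571 replicate 4 it was 0. KI-571 replicate 4 had 5 members above every WT mouse (background 15.2%).

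**Figure D3:**
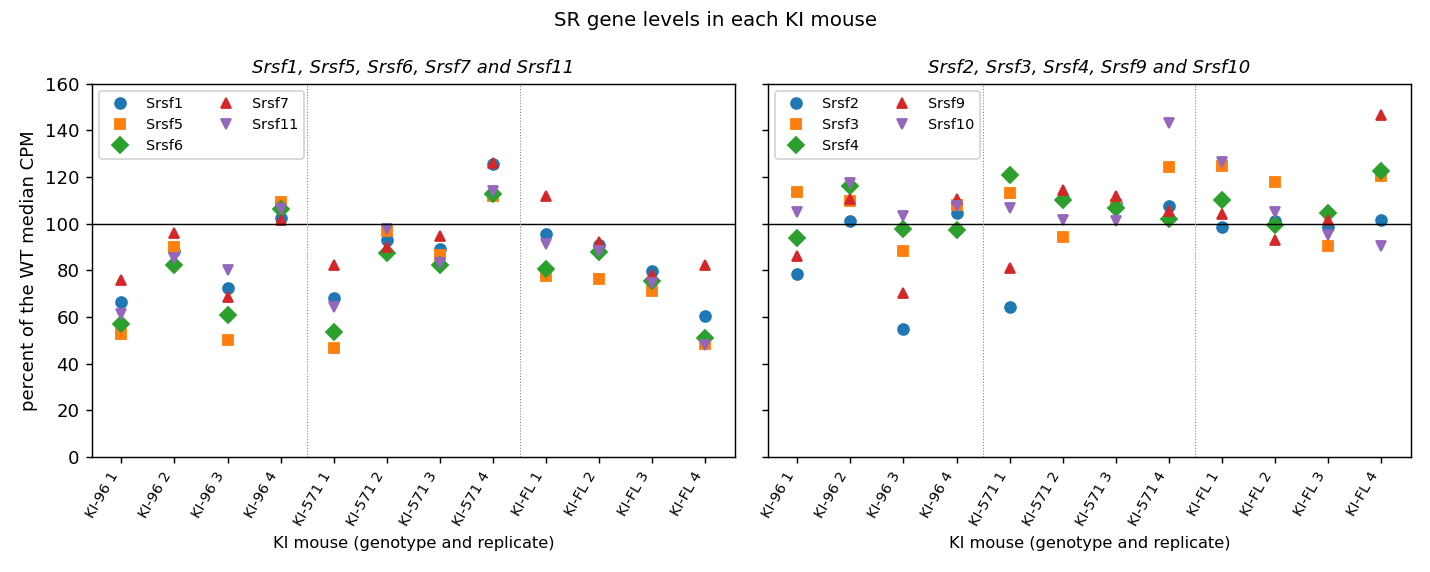
Level of each SR gene in each of the 12 KI mice (x axis) as a percentage of the WT median CPM (y axis, line at 100). In the left panel Srsf1, Srsf5, Srsf6, Srsf7 and Srsf11 dip together in KI-96 replicates 1 and 3, KI-571 replicate 1 and KI-FL replicate 4, with Srsf5 at 46.5% in KI-571 replicate 1, and in the right panel Srsf9 reaches 146% in KI-FL replicate 4.

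The scatter can be put as the SD of log2 CPM within a genotype. For Srsf5 it was 0.11 in WT, 0.56 in KI-96, 0.56 in KI-571 and 0.32 in KI-FL mice, and for Srsf6 0.17, 0.41, 0.45 and 0.35. All 3 KI genotypes had a larger SD than WT mice for 8 of the 10 members, the exceptions being Srsf2 and Srsf10, and for 37.4% of all tested genes. The median SD over members was 0.11 in WT, 0.30 in KI-96, 0.31 in KI-571 and 0.26 in KI-FL mice, and over all tested genes 0.22, 0.31, 0.26 and 0.31. The median SD of the members was thus below that of all tested genes in WT mice and nearer to it in KI mice. All tested genes include many with far fewer reads than the members, and the comparison was not matched for level. The difference in spread was not tested.

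Library measures of the 4 mice with low values were not of one kind. KI-96 replicate 3 had the largest share of reads on no gene and KI-FL replicate 4 the most genes at 0, as given above, whereas KI-96 replicate 1 and KI-571 replicate 1 had 12.1% and 15.5% of reads on no gene and 95 and 56 tested genes at 0. Both had the lowest TMM factors, 0.945 and 0.931. Total counts of the 4 mice were 14678565, 18583162, 22389330 and 15581446. Their summed CPM of striatal projection neuron markers was 7174, 5409, 8187 and 7027, against 5716 to 9134 in WT mice. Oligodendrocyte markers summed to 12273, 8497, 11109 and 11352 CPM (WT 10402 to 14780.0), and microglia markers to 407, 252, 368 and 425 (WT 284 to 386). KI-96 replicate 3 lay below the WT range for each of these 3 lists, and none of the 3 lists was below the WT range in all 4 mice. Astrocyte markers summed to 3934, 3879, 3983 and 3095 CPM (WT 3223 to 3989.8), endothelial markers to 90.0, 88.9, 119 and 71.3 (WT 61.5 to 138), and blood markers to 98.8, 86.6, 163 and 84.5 (WT 79.5 to 214). Among the 8 marker lists, the adjusted test called only blood markers, 2 of 5 in KI-571 against WT and 4 of 5 in KI-571 against KI-FL mice, all higher in KI-571 mice. Without KI-96 replicate 3 and KI-FL replicate 4 together, a choice made after the data were seen, the log2 fold change of Srsf6 was -0.21 in KI-96 and -0.22 in KI-FL mice, and that of Srsf5 was -0.25 and -0.42. Again 0 of 10 members passed. The part of these measures in the scatter was not tested.

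The members that moved together can be read from correlations across the 19 mice after the mean of each genotype was subtracted, which describe these libraries and share their depth and scaling. With Srsf6, Pearson's r was 0.97 for Srsf1, 0.92 for Srsf11, 0.91 for Srsf5, 0.77 for Srsf7 and 0.69 for Srsf2. It was 0.48 for Srsf10, 0.27 for Srsf9, 0.15 for Srsf3 and -0.34 for Srsf4. Srsf2 also went with Srsf5 (0.81) and Srsf9 (0.79), and Srsf10 went with Srsf7 (0.76). In the 7 WT mice alone, Srsf6 still went with Srsf1 (r = 0.91) and Srsf11 (r = 0.72), but not with Srsf5 (r = 0.061), whose r with Srsf6 was 0.97 in the 12 KI mice. Srsf5 varied little in WT mice (SD of log2 CPM 0.11, against 0.32 to 0.56 in the KI genotypes), and the KI mice include those with low values of both genes. The difference between these r was not tested.

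**Figure D4:**
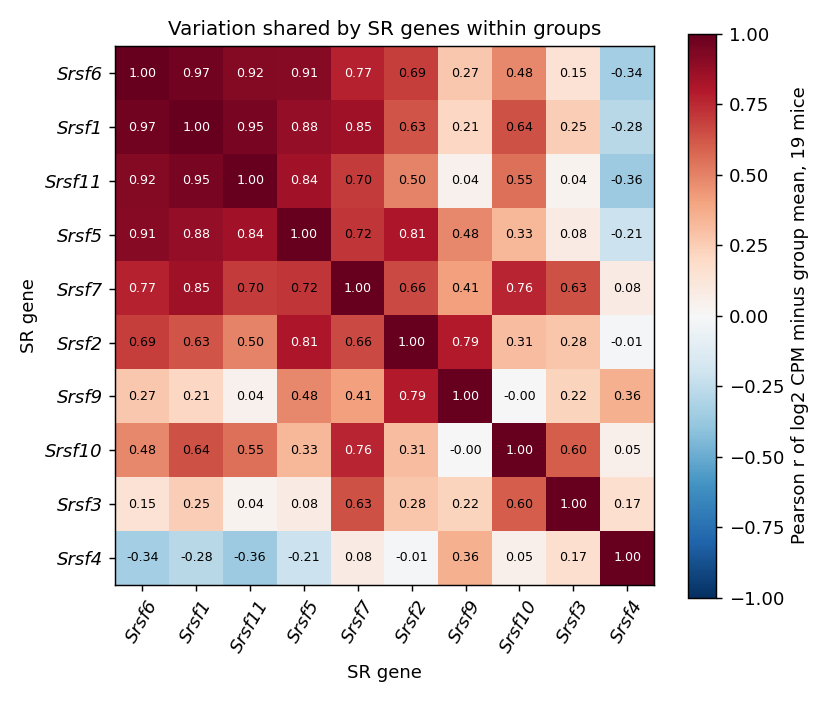
Pearson's r between SR genes over 19 mice (colour and number, x and y axes the 10 genes), from log2 CPM minus the mean of each genotype. Srsf6, Srsf1, Srsf11 and Srsf5 form a block with r of at least 0.84, and Srsf4 has negative r with each of them.

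Over all tested genes, the 5 whose pattern was most like that of Srsf6 by the same measure were Srsf1 itself (0.97), Arglu1 (0.94), Luc7l3 (0.94), Mat2a (0.93) and Pnn (0.93). Arglu1 is a coactivator rich in arginine and glutamate, Luc7l3 a protein of the U1 snRNP, Mat2a the enzyme that makes S-adenosylmethionine, and Pnn pinin, a nuclear protein that binds SR proteins. Arglu1 had 194 to 239 CPM (median 223) in WT mice, and 121, 186, 140.4 and 218 CPM in KI-96, 139.6, 216, 207 and 256 in KI-571 and 185, 179.6, 175 and 129 in KI-FL mice. Its 4 KI-FL mice were below every WT mouse, and its log2 fold changes were -0.42, -0.12 and -0.41 (edgeR adjusted p = 0.623, 0.957 and 0.188).

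When the KI genotypes were compared with each other, 0 of 10 members had an adjusted p under 0.05 in edgeR's test, with a background of 0% for KI-96 against KI-FL, 0.0864% for KI-571 against KI-FL and 0.0054% for KI-96 against KI-571 mice. No member reached an unadjusted p under 0.05 in these 3 comparisons either, by edgeR or by DESeq2. In KI-96 against KI-571 mice the fold change was below 0 for 10 of 10 members (background 50.8%). Their median log2 fold change was -0.13, against -0.0049 for all tested genes. Without KI-FL replicate 4 and KI-96 replicate 3 together it was 9 members, with a median of -0.044. Against KI-FL, 5 members were below 0 in KI-96 (background 47.3%) and 3 in KI-571 mice (background 47.2%). These directions were not tested. For Srsf6 the log2 fold change was 0.056 (95% interval -0.37 to 0.48) for KI-96 against KI-FL, 0.19 (-0.24 to 0.61) for KI-571 against KI-FL and -0.13 (-0.55 to 0.29) for KI-96 against KI-571 mice. These intervals are wide, and the data do not show whether the fragment length of mutant HTT made a difference to Srsf6.

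Htt itself, the gene that the KI mice carry in mutant form and to whose exon 1 SRSF6 has been linked, had 168 to 195 CPM (median 173) in WT mice. In replicates 1 to 4 it was 176, 184, 239.9 and 143 CPM in KI-96, 141, 124, 127 and 104 in KI-571 and 160.2, 155, 179 and 137 in KI-FL mice. The 4 KI-571 mice were below every WT mouse, with a log2 fold change of -0.53 (SE 0.11, edgeR adjusted p = 0.0959), while KI-96 and KI-FL mice overlapped WT (0.059 and -0.18, adjusted p = 0.942 and 0.431). By DESeq2 the change of Htt in KI-571 mice passed, with an adjusted p of 0.00863. The gene count sums the normal and the edited allele, so it is not a level of the mutant transcript. The study states that its truncating mutations left mRNA expression of the truncated form unaffected, which these counts cannot show for 1 allele. The mice with the least Srsf6 had 176, 239.9, 141 and 137 CPM of Htt, from the highest value of all mice in KI-96 replicate 3 to below the WT range.

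Of the kinases that act on SR proteins, Clk1 and Clk4, which work in the nucleus and are themselves held back by retained introns, were lowest in the same 4 mice as Srsf6. Clk4 had 83.2 to 107 CPM (median 92.2) in WT mice and 56.9, 78.0, 58.6 and 90.1 CPM in KI-96, 60.7, 86.1, 86.6 and 99.0 in KI-571 and 73.6, 75.8, 78.4 and 68.2 in KI-FL mice. All KI-FL mice were below the WT range, and the lowest KI-96 and KI-571 mice were those with low Srsf6. The log2 fold change of Clk4 was -0.40 (edgeR adjusted p = 0.564) in KI-96, -0.17 (adjusted p = 0.865) in KI-571 and -0.34 (adjusted p = 0.198) in KI-FL mice. Clk1 had 149 to 203 CPM (median 159.7) in WT mice, with lows of 93.3 and 107 in KI-96 replicates 1 and 3, 95.3 in KI-571 replicate 1 and 116 in KI-FL replicate 4. Its log2 fold changes were -0.42, -0.18 and -0.32 (edgeR adjusted p = 0.623, 0.900 and 0.305).
Srpk1 and Srpk2 are the kinases of the cytoplasm. Srpk1 had 74.5 to 114 CPM (median 86.9) in WT mice and was highest of all mice, at 138 CPM, in KI-571 replicate 1, where Srsf5 was lowest. Srpk2 had 174 to 218 CPM (median 194) in WT mice and between 172 and 228 in KI mice. Over the 14 kinases, phosphatases and import factors, 0 passed the adjusted test against WT in any genotype, and 3, 0 and 2 were lower and 1, 1 and 2 higher at an unadjusted p under 0.05 in the genotypes in the same order as above. Of all tested genes 3.09%, 3.83% and 8.84% were lower and 4.36%, 3.89% and 7.89% higher. With WT and KI-FL mice alone in the fit Clk4 passed (edgeR adjusted p = 0.0452), as did 336 of 17757 tested genes.

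Of 20 other SR and SR-related proteins, 0 passed the adjusted test in any genotype. At an unadjusted p under 0.05, 4 were lower and 1 higher in KI-FL mice (Srrm1, Srrm2, Scaf1, Pnisr and Luc7l3, of which Srrm1, Pnisr and Luc7l3 were lower). Of all tested genes 8.84% were lower and 7.89% higher. KI-96 mice had 1 lower (Pnisr, background 3.09%) and 1 higher (Scaf1, background 4.36%). KI-571 mice had 0 (background 3.83% lower and 3.89% higher). Pnisr, a nuclear SR-related protein, had 267 to 353 CPM (median 297) in WT mice and 153, 250.3, 222 and 288 CPM in KI-96, 172, 287, 259 and 315 in KI-571 and 225, 249.9, 224 and 181 in KI-FL mice. Its KI-FL mice were all below the WT range (log2 fold change -0.48, SE 0.16, edgeR adjusted p = 0.148). Srrm1, a coactivator that joins SR proteins to the spliceosome, was also below the WT range in the 4 KI-FL mice (125, 148, 136 and 139.7 against 159 to 183 CPM (median 172) in WT), with a log2 fold change of -0.33 (edgeR adjusted p = 0.148). With WT and KI-FL mice alone in the fit both passed (edgeR adjusted p = 0.0317 for Pnisr and 0.0344 for Srrm1), where 336 of 17757 tested genes did. The median log2 fold change of the 20 genes was -0.058 in KI-FL mice, against -0.028 for all tested genes.

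**Figure D5:**
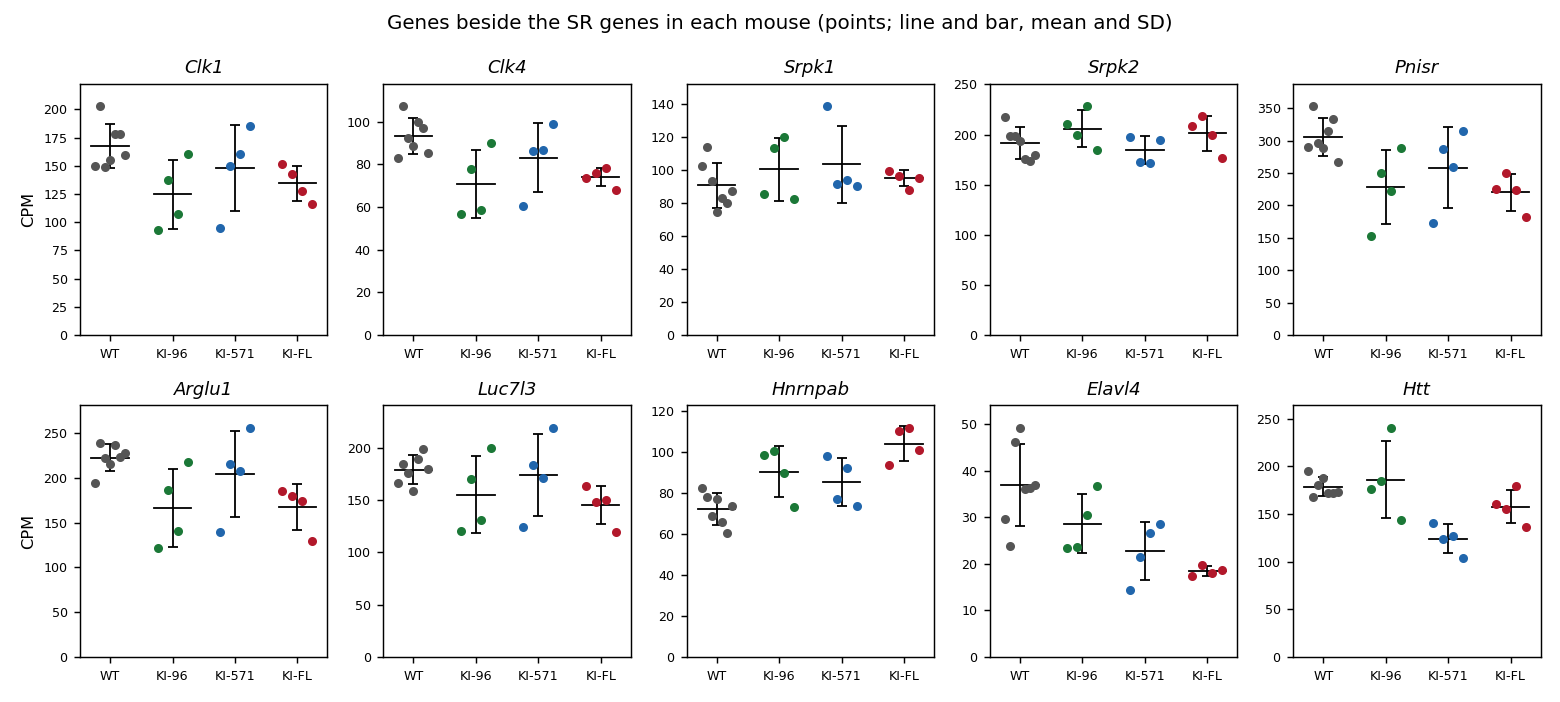
CPM (y axis, from 0) of kinases, SR-related proteins, other RNA-binding proteins and Htt in each mouse, by genotype (x axis), with the mean (line) and SD (bar). Clk1, Clk4 and Pnisr dip in the mice in which Srsf6 is low, Pnisr by less in KI-96 replicate 3. Arglu1 and Luc7l3 dip in them too, but were chosen for their likeness to Srsf6 in these mice. Hnrnpab is raised in the 4 KI-FL mice and Elavl4 is low in them.

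The other splicing lists held the 2 genes that passed, both in KI-FL mice, where 0.194% of all tested genes passed. Among 25 hnRNP and PTB proteins, which often oppose SR proteins at exons, 4 were higher and 2 lower in KI-FL mice at an unadjusted p under 0.05. Of all tested genes 7.89% were higher and 8.84% lower. The 1 that passed the adjusted test was higher. This was Hnrnpab, at 60.3 to 82.5 CPM (median 73.4) in WT mice and 93.3, 110.2, 111 and 101 CPM in KI-FL mice, all above the WT range, with a log2 fold change of 0.53 (SE 0.10, edgeR adjusted p = 0.0443). Among 20 neuronal splicing regulators, 2 were higher and 3 lower in KI-FL mice at an unadjusted p under 0.05. The 1 that passed the adjusted test was Elavl4, which encodes the neuronal RNA-binding protein HuD. Elavl4 had 23.8 to 49.1 CPM (median 36.4) in WT mice and 17.5, 19.8, 17.9 and 18.6 CPM in KI-FL mice, all below the WT range, with a log2 fold change of -0.999 (SE 0.19, edgeR adjusted p = 0.0435). For the KI-96 and the KI-571 genotype the log2 fold change was 0.32 and 0.24 for Hnrnpab (edgeR adjusted p = 0.564 and 0.579) and -0.36 and -0.70 for Elavl4 (adjusted p = 0.691 and 0.207). Without KI-FL replicate 4 the size of both was kept (0.54 for Hnrnpab and -1.004 for Elavl4) but the adjusted p was 0.0972 for each, and over all settings in which 1 mouse was left out it ranged from 0.0246 to 0.107 for Hnrnpab and from 0.0210 to 0.0972 for Elavl4. By DESeq2 both passed (0.00211 and 0.000317), as did Hnrnpdl and Elavl2, which were named after their values were seen. DESeq2 called 509 of 18503 tested genes in KI-FL mice. Neither Hnrnpab nor Elavl4 passed with 1 surrogate variable (adjusted p = 0.597 and 0.531 by edgeR) or with the replicate number as a block (0.409 and 0.320). Cortical neurons also express Elavl4. The fold change of the cortical neuron markers was below 0 for 7 of 7 tested genes in KI-FL mice (background 53.9%). These markers summed to 1048 CPM in WT replicate 3, 65.8 to 117 in the other WT mice and 68.8 to 157 in KI-FL mice. The WT mean of these sums thus rests largely on 1 mouse. The part of cortical neurons in the Elavl4 result was not tested.
Of 24 proteins of the U1 and U2 snRNPs and U2AF, 0 passed. Against WT, the KI-96 genotype had 3 of the 24 lower and 0 higher at an unadjusted p under 0.05 (background 3.09% and 4.36%). Without KI-96 replicate 3 these counts were 2 and 2. For KI-571 there were 0 lower and 1 higher (background 3.83% and 3.89%), and for KI-FL 0 and 3 (background 8.84% and 7.89%). Fold changes lay below 0 for 18 of the 24 with KI-96 (background 52.8%), 8 with KI-571 (51.7%) and 10 with KI-FL (53.9%). Sf3a1, a subunit of the U2 snRNP, had 94.2, 95.7, 101 and 101 CPM in KI-FL mice against 70.0 to 84.7 CPM (median 73.6) in WT mice, with no overlap and a log2 fold change of 0.38 (edgeR adjusted p = 0.0622). Sf3a1 passed by DESeq2 (adjusted p = 0.00866), with WT and KI-FL mice alone in the fit (0.0202) and without KI-96 replicate 3 (0.0341). In these settings 509, 336 and 159 of all tested genes passed. U2af2, which binds the tract before the splice acceptor, had a log2 fold change of 0.24 in KI-FL mice (edgeR adjusted p = 0.198).

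The 10 factors of nonsense-mediated decay, the path that removes the decay forms of SR transcripts, gave 0 calls. At an unadjusted p under 0.05, 4 of 10 were higher in KI-FL mice (Upf1, Upf2, Upf3a and Smg8) against 7.89% of all tested genes. In KI-96 mice 1 of 10 was higher (Upf1) against 4.36% of all tested genes. The fold change in KI-FL mice was below 0 for 5 of the 10, with a median log2 fold change of 0.0015. The log2 fold change in KI-FL mice was 0.38 for Upf3a and 0.34 for Smg8, which regulates the kinase SMG1 (edgeR adjusted p = 0.151 and 0.177). Cirbp and Rbm3, RNA-binding proteins induced by cold, were not called in any comparison, and neither reached an unadjusted p under 0.05 against WT. In KI-96 mice both had lower values at an unadjusted p under 0.05 than in KI-FL mice (log2 fold change -0.60 for Cirbp and -0.44 for Rbm3, edgeR adjusted p = 0.425 and 0.472) and than in KI-571 mice (-0.42 and -0.51, adjusted p = 0.892 and 0.611). Of all tested genes 3.77% and 2.38% were lower at this p in these comparisons. The lowest and highest Cirbp values were those of KI-96 replicate 3 and KI-FL replicate 4, the libraries that stood apart. Cirbp had 55.4 to 90.7 CPM (median 68.2) in WT mice and 79.7, 42.1, 77.4 and 128 CPM in the 4 mice with low Srsf6, from the lowest to the highest value of all mice. Rbm3 had 37.8 to 64.9 CPM (median 55.8) in WT mice and 56.4, 33.5, 51.4 and 56.5 CPM in these 4. In KI-96 replicate 3 both were at their lowest of all mice, and in KI-FL replicate 4 both were at or above the WT median.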

How the data were processed

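Total RNA of the striatum was extracted with Trizol and sequenced on an Illumina instrument. Per the study's methods, the authors trimmed reads with BBduk, aligned them to GRCm38 with STAR and counted them per gene with HTSeq, and deposited raw counts per gene and mouse. The tool versions, annotation and strand setting are not given in the sources used here. Groups and replicate numbers were taken from the labels, and 4 further columns of the table were not used. The 5 summary lines of the counting were left out of library sizes, and reads on no gene made up 11.1% to 24.2% of the total. Gene IDs were matched to symbols without their version suffix, which named 54079 of 54232 genes. Libraries with like counts were looked for, and no pair of mice of 1 genotype agreed within sampling noise (lowest chi-square per degree of freedom 8.60).

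Counts were tested with edgeR 4.0.16 (R 4.3.3, limma 3.58.1) by the quasi-likelihood test in 1 fit of all 19 mice without covariates, after TMM scaling and a filter on low counts (filterByExpr, minimum count 10, minimum total 15), with Benjamini-Hochberg adjustment over 18521 genes and a threshold of 0.05. The study's methods name DESeq2 with a covariate called sac batch, which is not in the labels used here, so that design could not be repeated. They also state that a WT sample was left out as a potential outlier, without naming it in the sources used here, so that it may be among the 7 labelled WT mice, all of which were used. Log2 CPM used a prior count of 2. CPM divided by the summed exon length of GENCODE M21 gave RPKM. Srsf6 was also tested by an exact permutation test over mice. The 3 KI genotypes share the same WT mice. Where nothing in the labels says otherwise, mice were taken as separate animals. Alternatives were DESeq2 1.42.0, its size factors in edgeR, other filters, a threshold of 0.1, Xist or 1 surrogate variable (sva 3.50.0) as covariates, a replicate block, only the groups compared, subsets of WT mice, and leaving out each mouse, with 1 added after the data were seen (KI-FL replicate 4 and KI-96 replicate 3 left out together). The fitting scripts were tested on simulated data.

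The members, the lists of related genes and the marker lists were chosen with earlier results of these data known. Named in the text were all SR genes and Htt, the genes of each related list with an adjusted p under 0.05 against WT or otherwise the 2 with the smallest p, the kinases Clk1, Clk4, Srpk1 and Srpk2, Cirbp and Rbm3, and the 5 genes most like Srsf6. Srrm2, Scaf1, Upf1, Upf2, Hnrnpdl and Elavl2 were named after their values were seen, as were the promoter motifs chosen. Promoter sequences are from RefSeq (GRCm38), all 10 members being matched by symbol, and the Htt and Srsf6 exon sequences from the GRCm38 genome with GENCODE M21.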

Additional observations from a re-analysis of the deposited data

Results flagged for a closer look

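In 8 of 116 combinations of a gene and a genotype (29 genes), the highest or lowest mouse stood apart from the others of its genotype by Dixon's test, where chance gives about 1 in 20. Among SR genes, Srsf2 was high in WT replicate 2 (85.5 CPM against 65.2 to 73.2 in the other mice) and low in KI-571 replicate 1 (46.5 CPM against 77.8 to 80.3 in the other mice). Srsf7 was high in WT replicate 2 (136 CPM against 96.6 to 109 in the other mice), and Srsf10 was high in KI-571 replicate 4 (103 CPM against 72.8 to 76.9 in the other mice). In KI-571 replicate 1, Srpk1 was high (138 CPM against 90.2 to 93.9 in the other mice) and Pnn was low (84.5 CPM against 114 to 117 in the other mice). Arglu1 was low in KI-FL replicate 4 (129 CPM against 175 to 185 in the other mice), and Smg8 was low in WT replicate 5 (10.4 CPM against 12.7 to 14.6 in the other mice). The cause of these values was not tested.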

How the results depend on the processing

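Across 12 other settings, 0 of 10 SR genes passed in every comparison except 1, the fit of WT and KI-FL mice alone, in which 1 passed (Srsf5). Leaving out each of the 19 mice in turn also gave 0 of 10 in every comparison. The count over all tested genes depended on the processing strongly. In the order KI-96, KI-571 and KI-FL against WT, KI-96 and KI-571 against KI-FL, and KI-96 against KI-571 it was 5, 6, 36, 0, 16 and 1 by edgeR at an adjusted p under 0.05. It was 11, 29, 265, 9, 28 and 4 at an adjusted p under 0.1, 28, 102, 509, 38, 88 and 35 by DESeq2, 23, 78, 85, 24, 25 and 35 with no filter on low counts, 0, 3, 55, 0, 12 and 0 with at least 10 counts in every mouse, 0, 6, 0, 0, 14 and 0 with Xist as a covariate, 9, 9, 0, 0, 1 and 0 with 1 surrogate variable, and 0, 55, 336, 2, 11 and 9 with only the groups compared in the fit. Against WT it was 0, 0 and 0 with WT replicates 1 to 4 only, and 28, 18 and 40 with WT replicates 5 to 7 only. Without KI-FL replicate 4 and KI-96 replicate 3, a choice made after the data were seen, it was 4, 91, 90, 0, 1 and 0. With 1 mouse left out it ranged over 1 to 10, 0 to 46, 0 to 159, 0 to 9, 1 to 21 and 0 to 5. The cause of these shifts was not tested.

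In the exact test the difference of Srsf6 in log2 CPM ranged, with 1 mouse left out, over -0.51 to -0.21 in KI-96, -0.37 to -0.011 in KI-571 and -0.47 to -0.21 in KI-FL mice, and in KI-FL mice it was -0.31 with WT replicates 1 to 4 only, where the exact p was 0.200.

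The direction of the SR genes with fold changes near 0 turned in some settings. Against WT, the log2 fold change became -0.0086 for Srsf4 in KI-96 mice with no filter, and with Xist as a covariate -0.057 for Srsf3, 0.062 for Srsf9 and -0.078 for Srsf10 in KI-96 mice. With 1 surrogate variable it was -0.0025 for Srsf3 and -0.027 for Srsf4 in KI-96, -0.021 for Srsf9 in KI-571, and -0.11 for Srsf9 and 0.0080 for Srsf10 in KI-FL mice. With WT replicates 1 to 4 only it was -0.048 for Srsf4 and -0.058 for Srsf10 in KI-96 mice, and with WT replicates 5 to 7 only 0.023 for Srsf2 and 0.061 for Srsf10 in KI-FL mice. Without the pair of libraries it was 0.0079 for Srsf9 in KI-96, and -0.039 for Srsf9 and 0.016 for Srsf10 in KI-FL mice. For Srsf6, KI-96 against KI-FL gave -0.0011 with Xist and -0.19 with the surrogate variable, and KI-571 against KI-FL -0.077 with the latter. With 1 mouse left out the sign turned within these ranges, in KI-96 mice Srsf3 -0.015 to 0.097, Srsf4 -0.069 to 0.038, Srsf9 -0.20 to 0.0073 and Srsf10 -0.029 to 0.087, in KI-571 mice Srsf1 -0.27 to 0.026, Srsf2 -0.11 to 0.12, Srsf7 -0.20 to 0.023, Srsf9 -0.035 to 0.12 and Srsf10 -0.057 to 0.15, in KI-FL mice Srsf2 -0.046 to 0.031, Srsf9 -0.034 to 0.20 and Srsf10 -0.16 to 0.033, and for Srsf6 -0.15 to 0.17 in KI-96 against KI-FL and -0.33 to 0.045 in KI-96 against KI-571 mice. None of these values passed the adjusted test. Srsf5, Srsf6 and Srsf11 kept a negative fold change against WT in all 3 genotypes under each of these settings, but in KI-FL mice their size fell with 1 surrogate variable to -0.27, -0.027 and -0.095.

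The groups share replicate numbers, which name different animals. Same-numbered mice deviated from their group means with r of -0.13 to 0.29 over 24 pairs, 5 of them over 0.1. Of 16 mice, 8 correlated best with their own number. Random matching would give fewer, because most candidate mice carried another number. Whether the numbers follow a structure shared between groups was not tested. The labels do not name the numbers as pairs, so they were not taken as pairing in the main fit. In a fit blocked by replicate number the counts over all genes were 0, 1, 0, 1, 9 and 0, 0 of 10 SR genes passed, and the fold changes in KI-96 mice turned to -0.047 for Srsf4 and -0.048 for Srsf10.

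The number of mice (4 in each KI genotype) and the scatter among them limit the precision of the SR gene fold changes. The study's batch, sex and RNA quality are not in the labels used here and could not be entered. Gene totals cannot show a change between coding and decay forms of an SR transcript.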
